A study of Mus musculus with 39 samples.

Results

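Solute carriers are membrane proteins that move nutrients, metabolites, vitamins and ions, and 179 of their genes were followed in mouse brain endothelial cells after deletion of Smad4, Alk1 or Eng. The members are the genes whose symbol starts with Slc and a number and whose mean value in wild types was at least 200 in each of the Smad4, Alk1 and Eng tables. They are 179 of 376 such genes, among 24946 genes present in all 5 tables. The members were thus chosen by their values in wild types, and wild-type levels are given as a description without a test. The same wild-type values enter each comparison with mutants, so counts over the members are read beside those of the 10322 genes that reached the same wild-type level. The organic anion transporters named Slco fall outside the rule, as do Slc genes that were low in wild types and higher in mutants, which are described separately.

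Smad4, Alk1 and Eng act in bone morphogenetic protein signalling in endothelium, and their loss models the vessel malformations of hereditary haemorrhagic telangiectasia. Whole brains of C57BL/6 pups were dissociated and endothelial cells were captured on beads with an antibody to PECAM, and RNA was sequenced. Wild types carried the floxed alleles Smad4f/f, Alk1f/f or Engf/f alone, and mutants carried in addition Cdh5-CreERT2, a tamoxifen-inducible recombinase driven by the endothelial Cdh5 promoter. Each of these 6 groups had 5 libraries. The Smad4 and Eng pups received 300 µg of tamoxifen on postnatal days 1 to 3 and were collected on day 7, and the Alk1 pups received 100 µg on day 4 and were collected on day 6. In a further experiment, Smad4f/f wild types and Smad4f/f; Cdh5-CreERT2 mutants received 30 µg of control IgG on days 2 and 4, and other mutants received LC10, an inhibitor of angiopoietin-2, on the same days, with 3 libraries per group. The cohorts thus differ in age and in tamoxifen dose as well as in the deleted gene, and these cannot be told apart in comparisons between cohorts. The labels do not say whether each library came from a separate animal, so p-values measure the spread between these libraries, which may be technical. Some column names carry a code whose meaning the labels do not give. Code L146 marks 2 wild types and 2 mutants of the Smad4 cohort, L219 the same numbers in the Alk1 cohort, and L210 marks 4 and 4 in the Eng cohort. Libraries are numbered by the order of their columns within a group.

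The endothelium of the brain is sealed by tight junctions, and water-soluble nutrients reach the brain largely through carriers in its membranes. Glucose enters by facilitated diffusion, lactate and ketone bodies together with protons, large neutral amino acids by exchange, and thyroid hormone, choline and vitamins through carriers of their own. Other solute carriers sit in mitochondria, lysosomes, the Golgi apparatus and the endoplasmic reticulum, and still others set the balance of ions and metals of the cell.

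The deposited values summed to about 25440000 to 42740000 per library, and 16105 to 17683 genes were above 0. Smad4 itself stood at 5258 to 5903 in the 5 wild types and 1676 to 1916 in the mutants, and Eng at 60151 to 70402 against 8613 to 11508. Acvrl1, the gene that encodes Alk1, was at 14197 to 16755 against 12441 to 15809, a log2 change of -0.12 (adjusted p = 0.279), so its level does not check the Alk1 labels. Endothelial markers, 8 genes, were the most abundant of the marker lists in each cohort. Markers of other cells were also present, and in Smad4 mutants most of these lists were lower. Summed marker values there were 55419 to 78185 in wild types and 15663 to 48843 in mutants for pericytes (5 of 8 lower), and 29369 to 144798 against 3617 to 26248 for choroid plexus and ependyma (4 of 5 lower). The neuron list had 7 of 10 lower (3682 to 6054 against 2392 to 4795), the oligodendrocyte lineage list 4 of 7 (6886 to 22610 against 1737 to 8793) and the astrocyte list 1 of 8 (12535 to 31210 against 7684 to 20160). Smooth muscle markers were lower for 4 of 5, fibroblast markers for 3 of 6, erythroid markers for 4 of 5 and microglia markers for 0 of 7. Of the defining markers, the globin gene Hbb-bs was at 0 in every Smad4 and Alk1 mutant library, with wild-type means of 9.5 and 93.1. In Alk1 mutants 4 of 5 smooth muscle markers and 4 of 5 erythroid markers were lower, and in Eng mutants 3 of 6 erythroid and 3 of 8 endothelial markers were lower. Their part in the results on carriers was not tested. The marker fit, which holds the mean level of glia and neuron markers as a covariate, is given beside the untreated calls it ended. In the Smad4 cohort that level ran from 8.33 to 9.7 in wild types and from 6.61 to 8.97 in mutants. Marker level and genotype thus went partly together there, and the marker fit separates them poorly.

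In wild types, the members together made up 3.38% ± 0.143 of the value sum in the Smad4 cohort, 3.49% ± 0.080 in the Alk1 cohort and 3.51% ± 0.107 in the Eng cohort (SD, n = 5 each). The 10 members with the highest values held 60.6% to 62.2% of that share. Per 1000 bases of exon, the highest wild-type levels in the Smad4 cohort were those of Slc7a5 (30337), the light chain of the large neutral amino acid exchanger LAT1, and Slc16a1 (29833), the lactate and ketone body carrier MCT1. The glucose carrier Slc2a1, known as GLUT1, followed at 14701. Next came the glutamine carrier Slc38a5 (11411), the heavy chain Slc3a2 that partners Slc7a5 (9940), the taurine carrier Slc6a6 (9429) and the cationic amino acid carrier Slc7a1 (7803). The first 4 of these, Slc7a5, Slc16a1, Slc2a1 and Slc38a5, came in that order in each of the 3 cohorts. At the threshold, the members just inside were Slc25a26, Slc13a4 and Slc25a33, with lowest wild-type means of 200.3, 215.4 and 228.6. Just outside were Slc19a2, Slc25a13 and Slc4a5, at 188.3, 187.7 and 175.4. In mutants, the members made up 2.74% ± 0.049, 2.93% ± 0.172 and 2.99% ± 0.103 of the value sum in the Smad4, Alk1 and Eng cohorts.

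Of the 179 members, 74 passed an adjusted p of 0.05 in Smad4 mutants (28 higher, 46 lower), 87 in Alk1 mutants (32 higher, 55 lower) and 59 in Eng mutants (16 higher, 43 lower). Among all genes tested in these comparisons, 33%, 33.2% and 21.5% passed, and among genes at the same wild-type level 35%, 35.7% and 26.6%. The members' shares were 41.3%, 48.6% and 33%. Lower calls came to 15.8%, 15.7% and 9.08% of all genes in Smad4, Alk1 and Eng mutants, and higher calls to 17.2%, 17.5% and 12.4%. Among genes at the same wild-type level, lower calls came to 14.2%, 16.8% and 11.8% and higher calls to 20.8%, 18.9% and 14.7%. The median log2 change over the members was -0.01 in Smad4, -0.10 in Alk1 and -0.06 in Eng mutants, against 0.04, 0.01 and -0.01 over genes at the same level. At least 2-fold changes among the called members were 2 higher and 13 lower in Smad4, 4 higher and 11 lower in Alk1, and 1 higher and 2 lower in Eng mutants. Of all genes, 2.01% and 5.36%, 3.89% and 2.06%, and 0.836% and 0.132% passed that rule in the same order, and 1.14% and 2.34%, 2.71% and 1.4%, and 0.329% and 0.0872% of genes at the same level. In the marker fit 42 members passed in Smad4 mutants (13 higher, 29 lower, 23.5% of 179), against 16.5% of all genes and 19% of genes at the same level. That fit gave 90 in Alk1 mutants (34 higher, 56 lower, 50.3%), against 35.1% and 38.1%. In Eng mutants it gave 60 (16 higher, 44 lower, 33.5%), against 22% and 27%. When the 3 cohorts were fitted jointly, 31 passed in Eng mutants (6 higher, 25 lower, 17.3%), against 10.9% and 13.3%. Among Alk1 libraries without a code, 52 passed (13 higher, 39 lower, 29.1%), against 14.8% and 15.8%. Among Smad4 libraries with code L146, 99 passed (45 higher, 54 lower, 55.3%), against 43% and 44.5%. In these bulk samples, fewer cells of a type and less RNA per cell cannot be told apart. The library kit does not mark strand, so reads from a gene and an antisense or overlapping neighbour cannot be told apart either.

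By substrate class, lower calls were most frequent among carriers of monocarboxylates and thyroid hormone, with 4, 5 and 5 of 7 members lower in Smad4, Alk1 and Eng mutants and 1 higher in each. Amino acid carriers had 10, 12 and 12 of 27 lower and 3, 5 and 1 higher. Carriers of vitamins, choline and lipids had 7, 6 and 5 of 13 lower and 2, 2 and 0 higher. Metal and haem carriers had 6, 8 and 8 of 23 lower and 3, 7 and 1 higher. The nucleotide sugar carriers of the Golgi apparatus and endoplasmic reticulum had 5, 2 and 3 of 13 higher and 0, 1 and 0 lower. Their median log2 changes were 0.17, 0.02 and 0.02. Of all genes, 17.2%, 17.5% and 12.4% were called higher and 15.8%, 15.7% and 9.08% lower in these cohorts. Mitochondrial carriers, the largest class, were divided, with 5, 4 and 5 of 32 higher and 4, 6 and 4 lower. Inorganic ion carriers had 3, 6 and 3 of 26 higher and 6, 5 and 3 lower.

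**Figure D1:**
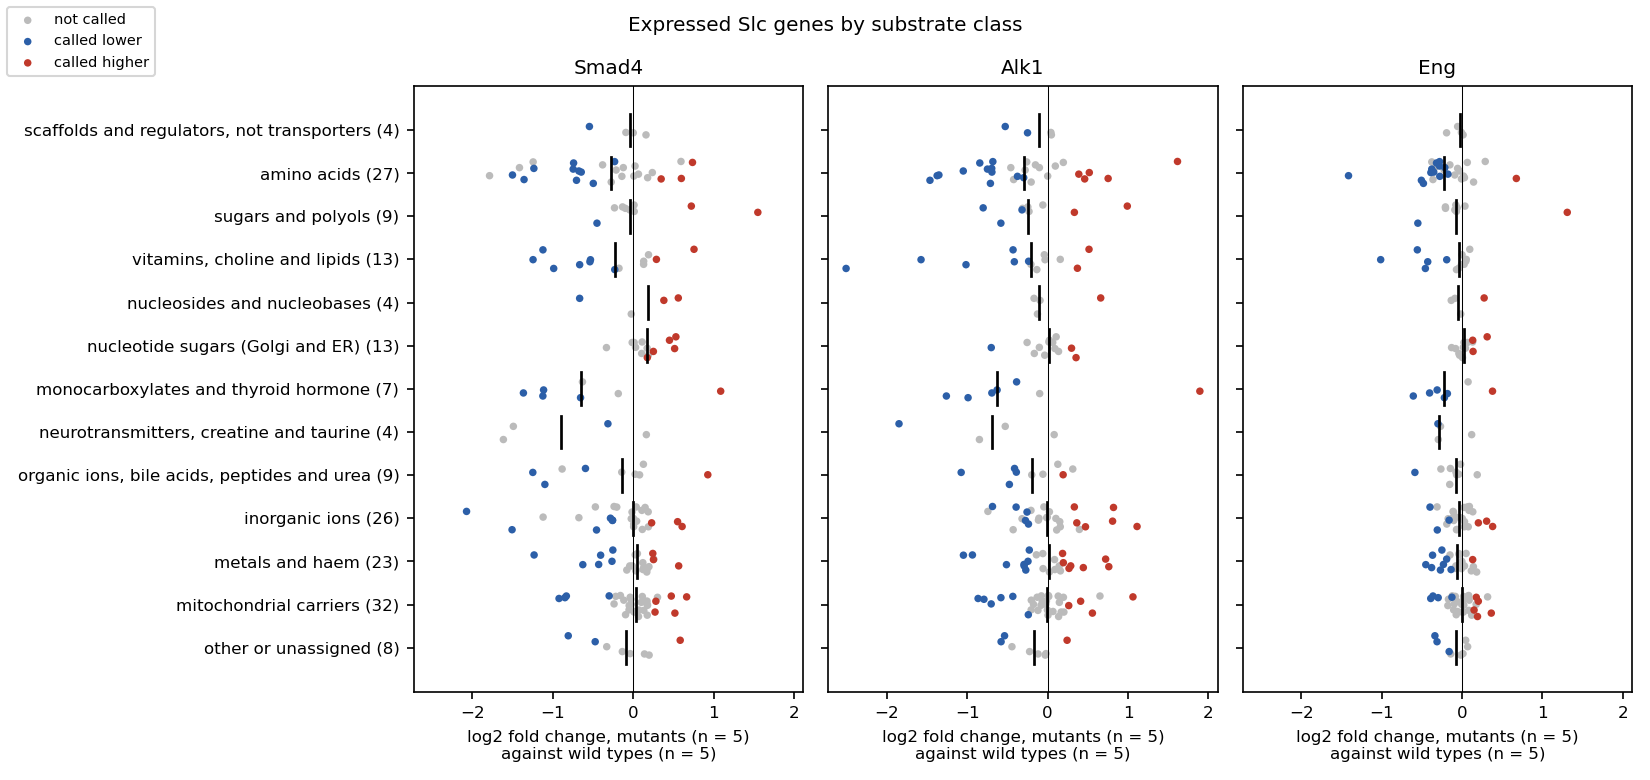
Log2 change of each of the 179 members, mutant over wild type, in Smad4, Alk1 and Eng cohorts (x axis), by substrate class (y axis); each point is 1 gene, red where called higher, blue where called lower and grey where not called at an adjusted p of 0.05, and the black bar is the class median (5 libraries per group). Carriers of monocarboxylates and thyroid hormone and of amino acids lie mostly left of 0, and nucleotide sugar carriers lie near or right of it.

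Among carriers of sugars and polyols, the glucose carrier Slc2a1 rose in 2 of the 3 cohorts. It was at 49898, 46491, 52377, 56572 and 52373 in Smad4 wild types and at 75189, 89457, 74417, 86730 and 101631 in mutants. The groups did not overlap, and the log2 change was 0.72 ± 0.10 (SE, adjusted p = 0.000265). In Alk1 wild types Slc2a1 was at 44684, 47770, 46818, 46508 and 44053, and in mutants at 47858, 117996, 146847, 100877 and 75846, a change of 0.99 ± 0.24 (adjusted p = 0.00674). A single Alk1 mutant library lay barely above the wild types while the others were well above them, and among libraries without a code in their column names the Alk1 call was lost (1.02, adjusted p = 0.0916). In Eng mutants the value was 61706 ± 2815 against 60355 ± 5849 (SD), a change of 0.04 ± 0.07 (adjusted p = 0.755). The Alk1 effect exceeded the Eng effect by 0.95 ± 0.24 (adjusted p = 0.00621), and the difference between the Smad4 and Eng effects, 0.69 ± 0.24, did not pass (adjusted p = 0.071).

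Slc2a9, a urate carrier of the glucose carrier family, rose in all 3 cohorts. In Smad4 it stood at 388, 389, 263, 362 and 361 in wild types and at 1010, 1126, 911, 1036 and 1060 in mutants, a 2.93-fold difference (log2 1.55 ± 0.11, adjusted p = 3.3e-06). In Eng it stood at 316, 430, 391, 389 and 446 against 971, 893, 915, 966 and 1134, a 2.48-fold difference (1.31 ± 0.10, adjusted p = 4.24e-06). No mutant library overlapped the wild types in either. In Alk1 the rise was small, from 322 ± 12.2 to 408 ± 34.3 (0.33 ± 0.09, adjusted p = 0.0111), and it missed the threshold after scaling to library totals (0.26, adjusted p = 0.0564), among libraries without a code (0.30, adjusted p = 0.149) and among those with code L219 (0.38, adjusted p = 0.0818). The difference between cohorts passed the test for Smad4 against Alk1 (1.22 ± 0.14, adjusted p = 4.01e-07) and for Alk1 against Eng (-0.98 ± 0.14, adjusted p = 2.31e-05). Slc45a4, a proton-coupled sugar carrier family member, fell in each cohort, by 0.45 ± 0.14, 0.58 ± 0.12 and 0.55 ± 0.13 in Smad4, Alk1 and Eng (adjusted p = 0.0284, 0.00256 and 0.00959). Its Smad4 groups overlapped, and that call was lost without any of 5 libraries (wild types 2, 4 and 5, mutants 1 and 2; adjusted p = 0.0521 to 0.0639). The Smad4 fall was larger in the marker fit (-0.74, adjusted p = 0.0025), and the Alk1 change was -0.39 among libraries without a code (adjusted p = 0.0963) and -0.87 with code L219 (adjusted p = 0.000929).

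Among carriers of lactate, other monocarboxylates and thyroid hormone, 4, 5 and 5 of 7 were lower and 1 was higher in Smad4, Alk1 and Eng mutants. The promoter of Slc16a1, the most abundant member that fell in all 3 cohorts, is shown here with that of the choline carrier gene Slc44a5, the member whose smallest fall over the 3 cohorts was the largest. Each is the 250 bases before the start site in RefSeq on GRCm38.p6 (mm10), plus strand, for Slc16a1 chr3:104638414-104638663 and for Slc44a5 chr3:153973186-153973435. Capitals mark the hexamer that holds ACGTG, the core letters of hypoxia response elements and of E-box sites.
Slc16a1: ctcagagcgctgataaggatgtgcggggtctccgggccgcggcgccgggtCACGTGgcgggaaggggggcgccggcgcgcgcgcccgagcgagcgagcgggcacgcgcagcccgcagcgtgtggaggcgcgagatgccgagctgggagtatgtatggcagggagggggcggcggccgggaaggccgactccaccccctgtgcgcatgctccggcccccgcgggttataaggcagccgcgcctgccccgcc
Slc44a5: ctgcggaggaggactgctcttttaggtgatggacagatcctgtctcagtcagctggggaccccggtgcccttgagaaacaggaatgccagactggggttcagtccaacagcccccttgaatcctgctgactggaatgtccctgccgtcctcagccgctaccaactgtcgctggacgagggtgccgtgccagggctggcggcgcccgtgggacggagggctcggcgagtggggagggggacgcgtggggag
The hexamer of Slc16a1 starts 200 bases before the start site, and Slc44a5 holds no such stretch. ACGTG, on either strand, is in 16.6% of all 32851 RefSeq start-site windows of this length. TGATGNAA, the letters of the amino acid response element, also on either strand, is in 3.45% and in neither promoter printed here. Of the 25 members lower in all 3 cohorts, 19 had entries with 27 start sites, of which 4 (14.8%) held ACGTG and 0 held TGATGNAA. Of the 61 members called in no cohort, 49 had entries with 60 start sites, of which 10 (16.7%) held ACGTG and 3 held TGATGNAA. Over all members with entries, 40 of 183 start sites (21.9%) held ACGTG and 5 (2.73%) held TGATGNAA. These matches describe letters in the sequence. The ACGTG shares among the lower members and the uncalled members were near that of all promoters, and the share over all members was above it. That difference was not tested.

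Slc16a1 (chr3:104638668-104658462, plus strand) was at 109056, 120071, 129751, 142220 and 159113 in Smad4 wild types and at 48154, 48481, 45118, 56610 and 56827 in mutants, 0.388 of the wild-type level (log2 -1.37 ± 0.11, adjusted p = 8.46e-06). In Alk1 wild types it was at 120133, 113626, 123764, 163601 and 146047, and in mutants at 76126, 71286, 60855, 106662 and 103566 (-0.69 ± 0.16, adjusted p = 0.00636). In Eng wild types it was at 163093, 171784, 187038, 171425 and 177827, and in mutants at 129140, 132766, 125463, 134040 and 136689 (-0.40 ± 0.05, adjusted p = 0.000287). Every mutant library lay below every wild type of its cohort in all 3. The fall was larger in Smad4 than in Alk1 (difference -0.67 ± 0.18, adjusted p = 0.0087) and than in Eng (-0.96 ± 0.18, adjusted p = 0.000612). Under quantile normalization the Eng fall was smaller, at -0.24 (adjusted p = 0.000638).

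Slc16a9, which has been described as a creatine and carnitine carrier, was at 1822, 1843, 2039, 1715 and 1827 in Smad4 wild types and at 880, 817, 1002, 808 and 749 in mutants (-1.12 ± 0.08, adjusted p = 3.18e-06). It fell by 1.26 ± 0.12 in Alk1 (adjusted p = 1.49e-05) and by 0.61 ± 0.03 in Eng mutants (adjusted p = 5.52e-07), with no overlap in any cohort. Slc16a4, a monocarboxylate carrier family member with little-known substrates, fell by 0.65 ± 0.06, 0.99 ± 0.16 and 0.22 ± 0.06 (adjusted p = 3.28e-05, 0.000493 and 0.0183). Its Eng groups overlapped, and that call was lost in the joint fit of the 3 cohorts (adjusted p = 0.253).

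Slc16a6, a ketone body and taurine carrier of the same family, went the other way. In Alk1 wild types it was at 1366, 1292, 1503, 1254 and 1425, and in mutants at 3690, 5634, 8096, 4851 and 4123, a 3.71-fold difference (1.89 ± 0.17, adjusted p = 7.82e-06). In Smad4 it stood at 1117, 1145, 1119, 971 and 958 in wild types and at 1547, 1603, 1487, 4268 and 3686 in mutants (1.09 ± 0.29, adjusted p = 0.0157). The last 2 of these Smad4 mutants carry the code L146, and the change was 2.04 among libraries with that code (adjusted p = 0.00015) and 0.45 among those without a code (adjusted p = 0.00359). The Smad4 call did not hold in the marker fit (0.44, adjusted p = 0.269). In Eng mutants it rose by 0.38 ± 0.10 (adjusted p = 0.0141), and that call was lost in the joint fit (adjusted p = 0.345). The Alk1 rise exceeded the Eng rise by 1.51 ± 0.31 (adjusted p = 0.00144).

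**Figure D2:**
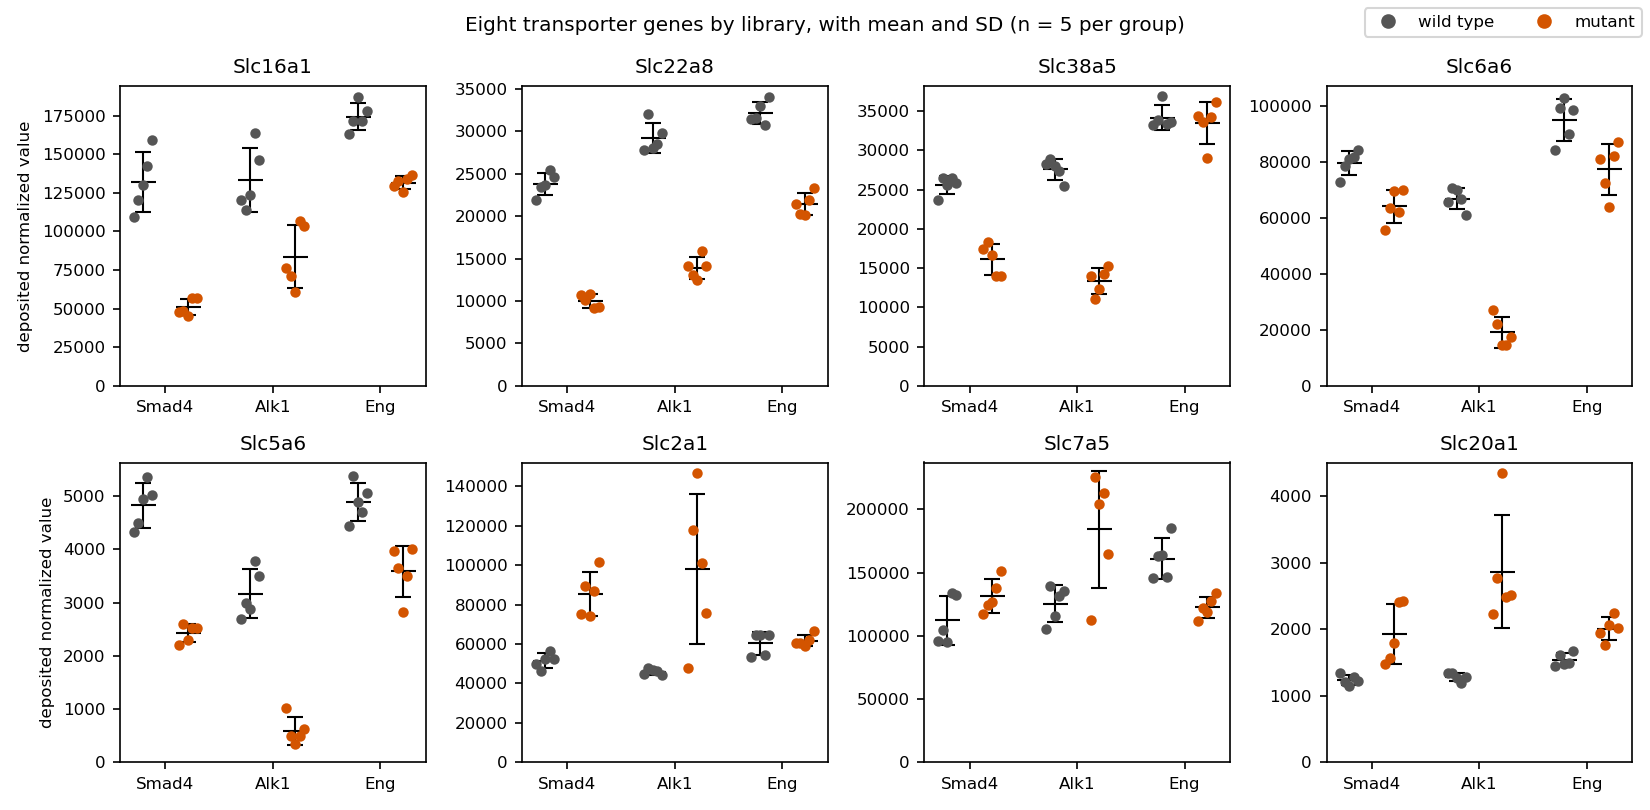
Deposited values of Slc16a1, Slc22a8, Slc38a5, Slc6a6, Slc5a6, Slc2a1, Slc7a5 and Slc20a1 in every library of the 3 cohorts, on linear axes from 0, wild types in grey and mutants in orange; each point is 1 library, with the mean and SD of 5. Slc16a1 lies lower in every mutant library of each cohort, and Slc6a6 and Slc5a6 lie lowest in Alk1 mutants.

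Amino acid carriers were the class with the most lower members. Slc7a5 and Slc3a2, the 2 chains of LAT1, were not called in Smad4 mutants. Slc7a5 was at 112491 ± 19330 in Smad4 wild types and 131649 ± 13217 in mutants (0.24 ± 0.12, adjusted p = 0.153), which passed the threshold with the library code as a term (adjusted p = 0.0154) and among libraries without a code (0.32, adjusted p = 0.0459). In Eng it was at 146197, 163476, 163624, 146333 and 185253 in wild types and at 111849, 121825, 119043, 127260 and 133766 in mutants, without overlap (-0.39 ± 0.08, adjusted p = 0.00345). That call was lost in the joint fit (adjusted p = 0.0723), and the fall was -0.22 under quantile normalization (adjusted p = 0.0173). In Alk1 it was at 105341, 139710, 116019, 131261 and 135669 in wild types and at 112737, 225742, 204622, 213334 and 164862 in mutants (0.52 ± 0.17, adjusted p = 0.0386). The Alk1 groups overlapped, and the call was lost with no filter on low values (adjusted p = 0.0709), among libraries without a code (adjusted p = 0.195) or with code L219 (adjusted p = 0.0623). It was also lost without any of 8 libraries (wild types 1, 3, 4 and 5, mutants 2, 3, 4 and 5; adjusted p = 0.0501 to 0.0925). The Alk1 and Eng effects differed by 0.91 ± 0.20 (adjusted p = 0.00216). Slc3a2 was at 45458 ± 4317 in Eng wild types and 37323 ± 1717 in mutants (-0.28 ± 0.06, adjusted p = 0.00654), and its change was 0.02 ± 0.06 in Smad4 and 0.10 ± 0.09 in Alk1 (adjusted p = 0.777 and 0.434).

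Slc7a8, the light chain of the second large neutral amino acid exchanger LAT2, fell in all 3 cohorts. In Alk1 it was at 11917, 14389, 12744, 11108 and 12112 in wild types and at 5271, 4692, 4418, 4352 and 3877 in mutants, 0.363 of the wild-type level (-1.46 ± 0.09, adjusted p = 6.14e-07). It fell by 0.70 ± 0.09 in Smad4 (adjusted p = 0.000211) and by 0.51 ± 0.10 in Eng mutants (adjusted p = 0.0041), without overlap in any cohort. The Alk1 fall exceeded that in Smad4 by 0.76 ± 0.14 (adjusted p = 0.000398) and differed from that in Eng as well (-0.96 ± 0.14, adjusted p = 3.76e-05). Slc38a5, a glutamine carrier, fell from 25572 ± 1158 to 16096 ± 1985 in Smad4 mutants (-0.68 ± 0.08, adjusted p = 0.000151) and from 27600 ± 1339 to 13410 ± 1660 in Alk1 mutants (-1.05 ± 0.09, adjusted p = 3.67e-06). In Eng it was at 34172 ± 1545 and 33487 ± 2652 (-0.03 ± 0.06, adjusted p = 0.75), and the Smad4 and Alk1 effects each differed from the Eng effect (adjusted p = 0.000302 and 3.77e-07). Slc38a2, another carrier of glutamine and small neutral amino acids, fell by 0.75 ± 0.06, 0.75 ± 0.11 and 0.38 ± 0.08 in Smad4, Alk1 and Eng (adjusted p = 1.3e-05, 0.000325 and 0.00588).

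Slc7a1, the main cationic amino acid carrier, was at 86673, 94969, 93004, 88569 and 86619 in Smad4 wild types and at 76494, 76157, 78382, 74331 and 77727 in mutants (-0.23 ± 0.06, adjusted p = 0.0143). In Alk1 mutants it fell from 111874 ± 11081 to 69828 ± 7786 (-0.68 ± 0.10, adjusted p = 0.000286) and in Eng mutants from 135486 ± 11231 to 111630 ± 9787 (-0.28 ± 0.07, adjusted p = 0.0181). The Eng groups overlapped. The Smad4 call was lost among libraries with no code (-0.25, adjusted p = 0.0718), and the Eng call under quantile normalization (-0.16, adjusted p = 0.0681). Slc1a4, a neutral amino acid exchanger that carries serine, fell by 0.65 ± 0.06, 0.69 ± 0.09 and 0.35 ± 0.08 (adjusted p = 3.68e-05, 0.000108 and 0.00607). Slc43a2, a carrier of large neutral amino acids also named LAT4, fell by 0.74 ± 0.08, 0.84 ± 0.07 and 0.32 ± 0.04 (adjusted p = 4.08e-05, 5.97e-06 and 0.000311). Slc36a1, the lysosomal proton-coupled amino acid carrier, fell by 0.50 ± 0.07, 0.71 ± 0.11 and 0.48 ± 0.07 (adjusted p = 0.000484, 0.000478 and 0.000414). None of the groups of these last 3 genes overlapped in any of the 3 cohorts.

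Slc1a5, the glutamine exchanger ASCT2, rose in each cohort. It was at 679, 650, 691, 704 and 719 in Smad4 wild types and at 906, 898, 1070, 1289 and 1102 in mutants (0.60 ± 0.10, adjusted p = 0.00101). In Alk1 it went from 939 ± 43.3 to 1591 ± 191 (0.75 ± 0.08, adjusted p = 3.9e-05) and in Eng from 974 ± 58.9 to 1554 ± 36.1 (0.67 ± 0.05, adjusted p = 2.99e-06), with no overlap anywhere. Slc1a1, the neuronal type glutamate and cysteine carrier EAAT3, was at 1211, 1381, 1633, 1655 and 1877 in Alk1 wild types and at 2899, 5064, 6019, 5815 and 4472 in mutants, a 3.06-fold difference (1.61 ± 0.18, adjusted p = 4.59e-05). In Smad4 mutants it was at 1944, 1414, 1317, 3737 and 3026 against 1397 ± 143 in wild types (0.59 ± 0.26, adjusted p = 0.097), with the last 2 mutants, which carry the code L146, far above the others. Among libraries with that code the change was 1.16 (adjusted p = 0.00101), and with the code as a term (adjusted p = 0.018) or in the joint fit (adjusted p = 0.0289) the change of 0.59 passed the threshold. Its change in Eng mutants was 0.29 ± 0.12 (adjusted p = 0.111), and the Alk1 effect differed from those of Smad4 and Eng (adjusted p = 0.021 and 0.00358).

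Among less abundant amino acid carriers, Slc38a11 and Slc7a2 fell in Smad4 and Alk1 mutants, and Slc6a20a was called lower in Smad4 mutants. Slc38a11, a sodium-coupled carrier family member with little-known substrates, fell from 338 ± 34.9 to 132 ± 58.1 in Smad4 (0.353 of the wild-type level, adjusted p = 0.00691) and by 1.35 ± 0.17 in Alk1 (adjusted p = 9.68e-05), and its change in Eng was -0.09 ± 0.17 (adjusted p = 0.763). Slc7a2, a cationic amino acid carrier, fell by 1.24 ± 0.33 (adjusted p = 0.0162) and 0.69 ± 0.13 (adjusted p = 0.00206) in these 2 cohorts. Slc6a20a, a proline carrier, fell by 1.36 ± 0.34 in Smad4 (adjusted p = 0.0111). Its changes of -0.42 ± 0.16 in Alk1 and -0.36 ± 0.14 in Eng were not called (adjusted p = 0.0552 and 0.0779). The Alk1 change passed on totals (adjusted p = 0.0335), with the library code as a term (adjusted p = 0.0492) and among libraries without a code (-0.66, adjusted p = 0.0114). The Eng change passed under quantile normalization (adjusted p = 0.041) and with code L210 alone (adjusted p = 0.0484). Its value may share reads with its near copy Slc6a20b. In the marker fit the Smad4 calls of Slc38a11 (-0.88, adjusted p = 0.115), Slc7a2 (-0.42, adjusted p = 0.276) and Slc6a20a (-0.65, adjusted p = 0.188) were lost. Slc7a2 fell by 0.73 among Smad4 libraries without a code (adjusted p = 0.0193) and by 1.99 among those with code L146 (adjusted p = 0.00233).

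Among carriers of taurine, creatine and neurotransmitters, Slc6a6 fell in all 3 cohorts. This taurine carrier was at 65732, 70781, 69923, 66957 and 61224 in Alk1 wild types and at 27010, 22256, 14482, 14556 and 17423 in mutants, 0.278 of the wild-type level (-1.85 ± 0.16, adjusted p = 4.5e-06). In Smad4 it was at 73094, 78607, 81022, 81781 and 84193 against 55805, 63510, 69844, 62361 and 69897 (-0.31 ± 0.08, adjusted p = 0.0117). In Eng it was at 95055 ± 7639 against 77442 ± 9166 (-0.30 ± 0.09, adjusted p = 0.0264). The Alk1 and Smad4 groups did not overlap, and the Eng groups did. The Alk1 fall exceeded the Smad4 fall by 1.53 ± 0.17 (adjusted p = 2.33e-07) and differed from the Eng fall as well (-1.55 ± 0.17, adjusted p = 4.25e-07). The Smad4 call was lost among libraries without a code (adjusted p = 0.0754). The Eng call was lost under quantile normalization (-0.18, adjusted p = 0.077), in the joint fit (adjusted p = 0.116) and without any of 5 libraries (wild types 2, 3 and 5, mutants 2 and 3; adjusted p = 0.0502 to 0.0691). The creatine carrier Slc6a8 was not called in any cohort, at 0.16 ± 0.07, 0.08 ± 0.09 and 0.12 ± 0.05 (adjusted p = 0.0814, 0.525 and 0.0906), though the Smad4 change passed with the library code as a term (adjusted p = 0.0172) and with code L146 (adjusted p = 0.0342), and the Eng change on totals (adjusted p = 0.0229). Slc6a17, a vesicular neutral amino acid carrier of neurons, was at 1619, 2183, 2111, 1647 and 1982 in Alk1 wild types and at 772, 725, 685, 816 and 659 in mutants (-1.37 ± 0.10, adjusted p = 1.79e-06). In Eng it was at 3303 ± 464 and 1244 ± 206, again without overlap, a call lost in the joint fit (adjusted p = 0.0875). In Smad4 the wild types ran from 99.3 to 2084 and the mutants from 56.4 to 475 (-1.79 ± 0.82, adjusted p = 0.112), and the change passed with code L146 (adjusted p = 0.000374) and in the joint fit (adjusted p = 0.00824). The GABA carrier Slc6a11, known from astrocytes, varied widely between libraries of a group. Slc6a11 ran from 1590 to 5867 in Smad4 wild types and from 268 to 3058 in mutants (-1.61 ± 0.61, adjusted p = 0.0633, and 0.0122 with the library code as a term), beside the range of the astrocyte and neuron markers given above.

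Of 13 carriers of vitamins, choline and lipids, 7, 6 and 5 were lower and 2, 2 and 0 higher in Smad4, Alk1 and Eng mutants. Slc44a5, a choline carrier family member, was at 1683, 1619, 1734, 1960 and 2089 in Smad4 wild types and at 847, 738, 802, 685 and 745 in mutants (-1.25 ± 0.09, adjusted p = 2.27e-06). In Alk1 it was at 2154, 2101, 2141, 1974 and 2028 against 568, 682, 712, 844 and 706 (-1.57 ± 0.09, adjusted p = 5.24e-07), and in Eng at 2423, 2427, 2592, 2604 and 3059 against 1284, 1323, 983, 1308 and 1657 (-1.01 ± 0.11, adjusted p = 7.96e-05). All mutant libraries lay below all wild types, and among the 25 members lower in all 3 cohorts it had the largest smallest fall. Slc5a6, the sodium-dependent carrier of biotin and pantothenate, fell from 4822 ± 420 to 2427 ± 165 in Smad4 (-0.99 ± 0.07, adjusted p = 2.98e-06), from 4893 ± 356 to 3586 ± 481 in Eng (-0.46 ± 0.09, adjusted p = 0.00317) and from 3169 ± 452 to 591 ± 258 in Alk1 mutants. The Alk1 fall exceeded the Smad4 fall by 1.52 ± 0.23 (adjusted p = 3.25e-05) and differed from the Eng fall as well (-2.05 ± 0.23, adjusted p = 6.63e-07), and the Eng call was lost in the joint fit (adjusted p = 0.0734).

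Slc27a1, a fatty acid carrier, fell by 1.12 ± 0.19 in Smad4, 0.43 ± 0.12 in Alk1 and 0.56 ± 0.13 in Eng mutants (adjusted p = 0.00151, 0.0136 and 0.0103). Its Alk1 groups overlapped, and the Alk1 call was lost among libraries without a code (-0.31, adjusted p = 0.205). Its Smad4 fall in the marker fit was 0.67 (adjusted p = 0.0141). The folate carrier Slc19a1 fell by 1.01 ± 0.16 in Alk1 (adjusted p = 0.000511) and by 0.67 ± 0.17 in Smad4 (adjusted p = 0.0113). The Smad4 call was lost in the marker fit (-0.31, adjusted p = 0.196) and among libraries with no code (-0.44, adjusted p = 0.0544), and the Eng change was -0.01 ± 0.10 (adjusted p = 0.971). The thiamine carrier Slc19a3 was at 1646, 1763, 1862, 1847 and 1763 in Smad4 wild types and at 1234, 1252, 1248, 1147 and 1259 in mutants (-0.53 ± 0.05, adjusted p = 3.28e-05). Its change in Alk1 was -0.03 ± 0.08 (adjusted p = 0.793), and the 2 effects differed (-0.50 ± 0.09, adjusted p = 0.000315). In Eng it fell by 0.19 ± 0.06 (adjusted p = 0.0314), with overlap, a call lost in the joint fit (adjusted p = 0.0563), with code L210 alone (adjusted p = 0.071) and without any of 5 libraries (wild types 2, 3 and 5, mutants 2 and 3; adjusted p = 0.0559 to 0.081). The riboflavin carrier Slc52a2 fell by 0.54 ± 0.05, 0.41 ± 0.06 and 0.43 ± 0.04 in Smad4, Alk1 and Eng (adjusted p = 1.41e-05, 0.000326 and 9.27e-06), the same direction in all 3 without overlap. The ascorbate carrier Slc23a2 was among the few vitamin carriers that rose, by 0.76 ± 0.10 in Smad4 (adjusted p = 0.000197) and 0.51 ± 0.09 in Alk1 (adjusted p = 0.00114), against 0.10 ± 0.04 in Eng (adjusted p = 0.144). Both rises exceeded the Eng change (adjusted p = 0.000504 and 0.0172).

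Among carriers of organic ions, Slc22a8, the organic anion carrier OAT3, was at 27866, 32086, 27997, 28464 and 29790 in Alk1 wild types and at 14093, 13031, 12461, 15849 and 14103 in mutants (-1.07 ± 0.07, adjusted p = 1.25e-06). In Eng it was at 31478, 31534, 32942, 30782 and 34103 against 21466, 20309, 20138, 21920 and 23362 (-0.59 ± 0.05, adjusted p = 6.83e-06). In Smad4 it went from 23795 ± 1321 to 10030 ± 789. The Smad4 and Alk1 falls each exceeded the Eng fall (adjusted p = 9.59e-06 and 0.000363), and no groups overlapped. The carnitine carrier Slc22a5 fell by 0.59 ± 0.07 in Smad4 and 0.41 ± 0.07 in Alk1 (adjusted p = 7.82e-05 and 0.000588), without overlap. Its change in Eng was -0.15 ± 0.05 (adjusted p = 0.0641), which passed under quantile normalization (adjusted p = 0.0302), in the marker fit (adjusted p = 0.0241), with the library code as a term (adjusted p = 0.0355) and with code L210 alone (adjusted p = 0.0173). Slc22a17, a receptor for lipocalin with few known transport roles, was called lower in Smad4 (-1.10 ± 0.30, adjusted p = 0.0188) and Alk1 (-0.48 ± 0.16, adjusted p = 0.0394). The Smad4 call was lost in the marker fit (-0.32, adjusted p = 0.32) and among libraries without a code (adjusted p = 0.0608). The Alk1 call was lost in the marker fit (adjusted p = 0.069), among libraries without a code (adjusted p = 0.165), in the joint fit (adjusted p = 0.105) and without any of wild types 1, 2, 4 and 5 (adjusted p = 0.0552 to 0.0932). Slc22a15, a carrier of zwitterions, rose in Smad4 from 481, 476, 455, 540 and 459 to 890, 962, 791, 879 and 1094, without overlap (0.93 ± 0.09, adjusted p = 3.28e-05). That rise exceeded the changes in Alk1 and Eng by 0.74 ± 0.11 each (adjusted p = 1.84e-05 and 3.4e-05). The Alk1 rise of 0.19 ± 0.07 (adjusted p = 0.0413) was lost with no filter on low values (adjusted p = 0.0603), on totals (adjusted p = 0.292), in the marker fit (adjusted p = 0.0532), among libraries without a code (adjusted p = 0.324), with code L219 (adjusted p = 0.122) and without any of 9 libraries (all but mutant 3; adjusted p = 0.0597 to 0.0957).

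Nucleoside carriers divided by gene. Slc29a1, the equilibrative carrier ENT1, was at 5018, 4932, 4916, 5422 and 5534 in Smad4 wild types and at 6692, 6429, 6241, 7257 and 7027 in mutants (0.38 ± 0.06, adjusted p = 0.000574). Its changes in Alk1 and Eng were -0.09 ± 0.06 and -0.13 ± 0.05 (adjusted p = 0.269 and 0.106), and both differed from the Smad4 effect (adjusted p = 0.000131 and 9.75e-05). The Eng change passed with the library code as a term (adjusted p = 0.048). Slc29a4, the monoamine carrier PMAT, fell in Smad4 by 0.67 ± 0.08 (adjusted p = 0.000206), against -0.17 ± 0.12 in Alk1 and -0.09 ± 0.07 in Eng (adjusted p = 0.321 and 0.435). The 2 genes of 1 family thus moved in opposite directions in Smad4 mutants. Slc43a3, a purine nucleobase carrier, rose in all 3 cohorts, by 0.56 ± 0.09, 0.66 ± 0.11 and 0.27 ± 0.04 (adjusted p = 0.000752, 0.000594 and 0.000318), without overlap.

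The nucleotide sugar carriers supply the glycosyltransferases of the Golgi apparatus and endoplasmic reticulum. Slc35b4, which carries UDP-xylose and UDP-N-acetylglucosamine, was at 1484, 1290, 1410, 1289 and 1269 in Smad4 wild types and at 1778, 2024, 1925, 1674 and 1826 in mutants (0.45 ± 0.07, adjusted p = 0.000576). It exceeded the Alk1 change of 0.02 ± 0.10 (adjusted p = 0.00391). Slc35d1, a carrier of UDP-glucuronic acid, rose by 0.53 ± 0.13 in Smad4 (adjusted p = 0.00923) and by 0.31 ± 0.08 in Eng (adjusted p = 0.0111), and Slc35b3, a carrier of the sulfate donor PAPS, by 0.52 ± 0.12 in Smad4 (adjusted p = 0.00882). In the marker fit the Smad4 calls of Slc35d1 (0.27, adjusted p = 0.162) and Slc35b3 (0.22, adjusted p = 0.141) were lost, and in the joint fit the Eng call of Slc35d1 (adjusted p = 0.0906). Slc35e1, a family member with unknown substrates, rose from 2490 ± 326 to 3731 ± 436 in Smad4 (0.58 ± 0.10, adjusted p = 0.0014) and by 0.24 ± 0.06 in Alk1 (adjusted p = 0.0114), against 0.05 ± 0.04 in Eng (adjusted p = 0.51). Its Alk1 call was lost on totals (adjusted p = 0.0679), under quantile normalization (adjusted p = 0.0908) and among libraries without a code (adjusted p = 0.236). Slc35a3, a UDP-N-acetylglucosamine carrier, rose by 0.35 ± 0.07 in Alk1 mutants (adjusted p = 0.00307), without overlap. Slc35a5, a carrier of this family that is little studied, was the only member of the class called lower, in Alk1 (-0.70 ± 0.17, adjusted p = 0.00649), and that call was lost among libraries without a code (-0.86, adjusted p = 0.0519).

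Among inorganic ion carriers, several rose in Alk1 mutants. Slc20a1, the sodium-phosphate carrier PiT1, was at 1342, 1337, 1271, 1197 and 1281 in Alk1 wild types and at 2224, 2764, 4342, 2481 and 2507 in mutants, a 2.16-fold difference (1.11 ± 0.15, adjusted p = 0.000137). It rose also in Smad4 (0.61 ± 0.14, adjusted p = 0.00694) and Eng (0.38 ± 0.06, adjusted p = 0.00129), without overlap. The Smad4 call was lost in the marker fit (0.36, adjusted p = 0.118), and the change was 0.38 among libraries without a code (adjusted p = 0.0309) and 0.95 with code L146 (adjusted p = 0.000329). The Eng call was lost in the joint fit (adjusted p = 0.062). Slc12a2, the sodium-potassium-chloride carrier NKCC1, was at 4667, 4657, 4817, 4370 and 4567 in Alk1 wild types and at 7019, 8211, 9461, 8796 and 7454 in mutants (0.82 ± 0.08, adjusted p = 1.32e-05). Its changes in Smad4 and Eng were 0.15 ± 0.09 and 0.03 ± 0.05 (adjusted p = 0.204 and 0.797), and both differed from the Alk1 effect (adjusted p = 8.28e-05 and 1.56e-05). The sodium-proton exchanger Slc9a5 likewise rose in Alk1 (0.81 ± 0.09, adjusted p = 4.12e-05) and less in Eng (0.31 ± 0.07, adjusted p = 0.00805), and the 2 effects differed (adjusted p = 0.00379).

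Slc12a4, the potassium-chloride carrier KCC1, rose in each cohort, by 0.23 ± 0.06, 0.36 ± 0.09 and 0.20 ± 0.04 in Smad4, Alk1 and Eng (adjusted p = 0.0113, 0.00941 and 0.00448), with overlap in Smad4. On totals (0.15, adjusted p = 0.0537), in the marker fit (adjusted p = 0.119) and with no code (adjusted p = 0.13) the Smad4 call was lost, as was the Alk1 call within each set of codes (adjusted p = 0.0679 and 0.0659). Slc26a11, an anion exchanger family member, fell by 0.39 ± 0.08 in Alk1 and 0.40 ± 0.09 in Eng (adjusted p = 0.00393 and 0.0061). The Alk1 call was lost among libraries without a code (adjusted p = 0.0783). Slc4a10, a sodium-bicarbonate carrier known from choroid plexus and neurons, was at 1965, 735, 633, 455 and 390 in Smad4 wild types and at 269, 237, 359, 123 and 41.1 in mutants (-2.07 ± 0.58, adjusted p = 0.0197). Slc13a4, a sodium-sulfate carrier, was at 1094, 479, 462, 272 and 299 against 215, 167, 395, 102 and 70.7 (-1.51 ± 0.47, adjusted p = 0.0315). The wild-type library that was highest in 1 of them was highest in the other. The choroid plexus and ependyma markers in the same libraries summed to 29369 to 144798 in wild types and 3617 to 26248 in mutants. Both calls were lost in the marker fit (Slc4a10 -0.65, adjusted p = 0.343; Slc13a4 -0.29, adjusted p = 0.573). The Slc13a4 call was also lost without any of 6 libraries (wild types 1, 2 and 3, mutants 2, 4 and 5; adjusted p = 0.0532 to 0.0759).

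Among carriers of metals and haem, Slc39a10, Slc40a1, Slc31a1 and Slc39a8 fell in all 3 cohorts. Slc39a10, a zinc importer, was at 34977, 41735, 39706, 44286 and 43691 in Smad4 wild types and at 28652, 27203, 24974, 25975 and 25295 in mutants (-0.63 ± 0.07, adjusted p = 0.00012). It fell by 0.51 ± 0.07 in Alk1 and 0.45 ± 0.06 in Eng (adjusted p = 0.000155 and 0.000382), without overlap. No pair of the 3 effects differed by the test, with differences of -0.11 ± 0.10, -0.18 ± 0.10 and -0.06 ± 0.10 (adjusted p = 0.452, 0.274 and 0.74). Slc40a1, the iron exporter ferroportin, was at 34456, 33099, 34117, 36803 and 35282 in Alk1 wild types and at 20423, 15364, 11875, 20059 and 17959 in mutants (-1.05 ± 0.13, adjusted p = 8.56e-05). It fell by 0.40 ± 0.11 in Smad4 and 0.37 ± 0.07 in Eng (adjusted p = 0.0156 and 0.00409). The Alk1 fall exceeded both (adjusted p = 0.00601 and 0.00448). In Smad4 the call was lost among libraries with no code (-0.26, adjusted p = 0.0822), and the fall was 0.62 with code L146 (adjusted p = 0.00129). The copper importer Slc31a1 fell by 0.43 ± 0.05, 0.29 ± 0.06 and 0.23 ± 0.05 (adjusted p = 7.81e-05, 0.00305 and 0.00654), without overlap, and its Alk1 call was lost with code L219 (adjusted p = 0.0761). Slc39a8, a zinc and manganese importer, fell by 0.25 ± 0.08, 0.23 ± 0.06 and 0.25 ± 0.06 (adjusted p = 0.0394, 0.0158 and 0.00814), with overlap in Smad4 and Eng. Its Smad4 call was lost with no filter on low values (adjusted p = 0.0517) and without any of 6 libraries (wild types 2, 4 and 5, mutants 1, 2 and 3; adjusted p = 0.0597 to 0.084), and the Alk1 call within each set of codes (adjusted p = 0.102 and 0.157).

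Slc31a2, a relative of Slc31a1 that is thought to act on copper in endosomes, rose in Smad4 (0.57 ± 0.12, adjusted p = 0.00446) and Alk1 (0.29 ± 0.08, adjusted p = 0.0142). The Smad4 call was lost in the marker fit (0.28, adjusted p = 0.0519) and among libraries without a code (0.41, adjusted p = 0.0506). The Alk1 call was lost on totals (adjusted p = 0.0927), under quantile normalization (adjusted p = 0.0538) and among libraries with no code (0.16, adjusted p = 0.246), and the change was 0.48 with code L219 (adjusted p = 0.00396). The manganese exporter Slc30a10 fell by 1.23 ± 0.35 in Smad4 and 0.94 ± 0.19 in Alk1 (adjusted p = 0.0207 and 0.0028), the first of which was lost in the marker fit (-0.49, adjusted p = 0.34). Slc39a14, a zinc, iron and manganese importer, rose in Alk1 (0.76 ± 0.14, adjusted p = 0.00179), a call lost among libraries without a code (0.74, adjusted p = 0.0564). Slc41a1, a magnesium carrier, was at 3207, 3778, 3523, 3403 and 3537 in Alk1 wild types and at 4587, 6504, 6854, 6193 and 4947 in mutants (0.72 ± 0.11, adjusted p = 0.000338). In Eng it was at 3858, 4352, 4256, 3977 and 4470 against 3657, 3790, 3702, 3652 and 3487 (-0.19 ± 0.04, adjusted p = 0.00842). The 2 cohorts moved in opposite directions without overlap, and their effects differed by 0.91 ± 0.13 (adjusted p = 1.97e-05). The Eng call was lost in the joint fit (adjusted p = 0.211).

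Mitochondrial carriers moved little as a class, with medians of 0.04, -0.01 and 0.00 in Smad4, Alk1 and Eng. Slc25a24, a calcium-regulated ATP-magnesium and phosphate carrier, rose in all 3 cohorts, by 0.52 ± 0.07, 0.56 ± 0.09 and 0.36 ± 0.08 (adjusted p = 0.000211, 0.000666 and 0.00651), without overlap. Slc25a25, of the same group, was at 1108, 1259, 1292, 1173 and 1140 in Alk1 wild types and at 1743, 2768, 4271, 2395 and 1939 in mutants, a 2.09-fold difference (1.06 ± 0.19, adjusted p = 0.00136). In Smad4 it rose by 0.66 ± 0.13 (adjusted p = 0.0038), a call lost in the marker fit (0.46, adjusted p = 0.0625). In Eng its change was 0.32 ± 0.11 (adjusted p = 0.0582), which passed on totals (adjusted p = 0.0307), with the library code as a term (adjusted p = 0.00352) and with code L210 alone (adjusted p = 0.0143). Slc25a23, the other member of the group, fell by 0.92 ± 0.18, 0.86 ± 0.12 and 0.39 ± 0.08 in Smad4, Alk1 and Eng (adjusted p = 0.00338, 0.000146 and 0.0052). Its Smad4 fall was 0.47 in the marker fit (adjusted p = 0.0321), and in the joint fit the Eng call was lost (adjusted p = 0.0803). The 3 calcium-regulated carriers thus did not share a direction. Slc25a27, an uncoupling protein family member also named UCP4, fell from 334.5 ± 70 to 186.5 ± 48.2 in Smad4 (-0.85 ± 0.19, adjusted p = 0.00733) and from 284.4 ± 27.9 to 189 ± 9.25 in Alk1 (-0.58 ± 0.10, adjusted p = 0.000998), without overlap. Its Eng values were 437.1 ± 28.6 and 356.6 ± 38.5, with overlap (-0.30 ± 0.09, adjusted p = 0.0365). Its Smad4 call was lost in the marker fit (-0.47, adjusted p = 0.124) and among libraries without a code (-0.70, adjusted p = 0.101). The Eng call was lost on totals (adjusted p = 0.0538), in the marker fit (adjusted p = 0.0534), with code L210 alone (adjusted p = 0.0542), in the joint fit (adjusted p = 0.192) and without any of 7 libraries (wild types 1, 3, 4 and 5, mutants 1, 3 and 4; adjusted p = 0.0581 to 0.0745).

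Slc25a5, the adenine nucleotide carrier ANT2, rose by 0.28 ± 0.08, 0.41 ± 0.09 and 0.20 ± 0.03 (adjusted p = 0.0257, 0.00456 and 0.000561). Its Smad4 groups overlapped, and that call was lost under quantile normalization (0.15, adjusted p = 0.0814), in the marker fit (0.12, adjusted p = 0.382), among libraries without a code (adjusted p = 0.0945) and without any of wild types 1 and 3 and mutant 5 (adjusted p = 0.0557 to 0.0607). The Alk1 call was lost under quantile normalization (0.27, adjusted p = 0.0617) and among libraries with no code (adjusted p = 0.0892), and the Eng call in the joint fit (adjusted p = 0.0916). Its reads may be shared with processed pseudogenes. Slc25a4, the adenine nucleotide carrier ANT1, was called higher in Eng (0.19 ± 0.03, adjusted p = 0.00149), a call lost in the joint fit (adjusted p = 0.093), and not in Smad4 or Alk1 (adjusted p = 0.605 and 0.18). Slc25a42, a coenzyme A carrier, fell in Alk1 by 0.79 ± 0.10 (adjusted p = 0.000105), and its change in Smad4 was -0.03 ± 0.13 (adjusted p = 0.885), a difference of 0.76 ± 0.15 (adjusted p = 0.0007). Slc25a33, a pyrimidine nucleotide carrier near the threshold of the rule, was at 218, 193, 216, 244 and 272 in Smad4 wild types and at 131, 134, 133, 164 and 84.7 in mutants (-0.83 ± 0.18, adjusted p = 0.00487). In Alk1 it was at 245, 285, 214, 280 and 292 against 252, 353, 742, 512 and 350 (0.65 ± 0.24, adjusted p = 0.0532), and the 2 effects differed (-1.48 ± 0.28, adjusted p = 0.000357). In the marker fit the Smad4 call was lost (-0.70, adjusted p = 0.0541), and the Alk1 change passed (0.73, adjusted p = 0.04), as it did under quantile normalization (adjusted p = 0.044) and in the joint fit (adjusted p = 0.00878).

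Of the 8 members grouped as other or unassigned, Slc35f2 was at 5144, 5802, 5824, 6384 and 6357 in Smad4 wild types and at 3456, 3392, 2933, 3537 and 3529 in mutants (-0.81 ± 0.07, adjusted p = 1.56e-05). It fell by 0.54 ± 0.06 in Alk1 and 0.34 ± 0.05 in Eng (adjusted p = 2.99e-05 and 0.000491), without overlap. Slc18b1, a vesicular polyamine carrier, fell by 0.47 ± 0.08, 0.58 ± 0.11 and 0.31 ± 0.07 (adjusted p = 0.00181, 0.00147 and 0.0103). Slc35e2 was called lower in Eng (-0.16 ± 0.04, adjusted p = 0.0204), a call lost in the joint fit (adjusted p = 0.237) and without mutant 3 (adjusted p = 0.0513). Its Alk1 change of -0.22 was not called. It passed on totals (adjusted p = 0.0428), in the marker fit (-0.32, adjusted p = 0.0083), with the library code as a term (adjusted p = 0.0281) and in the joint fit (adjusted p = 0.0258). The Smad4 change of -0.14, also not called, passed on totals (-0.22, adjusted p = 0.0258). The 4 members that are named Slc but do not transport included the scaffold Slc9a3r2, also named NHERF2. It was at 12774 ± 1083 in Smad4 wild types and 12772 ± 922 in mutants, and it was called lower in Alk1 (-0.25 ± 0.09, adjusted p = 0.0399), with overlap. That call was lost with no filter on low values (adjusted p = 0.0555), in the marker fit (adjusted p = 0.0672), within each set of codes (adjusted p = 0.145 and 0.0922) and without any of 7 libraries (wild types 2 to 5, mutants 1, 3 and 5; adjusted p = 0.0553 to 0.0951).

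Over the 3 cohorts, 118 members (65.9%) were called in at least 1 and 61 in none, against 54.5% called among all 13500 genes tested in the 3 cohorts and 57.8% among those at the same wild-type level. A total of 25 members (14%) were lower in all 3, against 3.1% and 3.77% of those genes. Among the 25 were Slc5a6, Slc44a5, Slc16a9, Slc22a8, Slc7a8, Slc6a6, Slc16a1, Slc25a23, Slc27a1, Slc43a2, Slc38a2, Slc16a4, Slc40a1, Slc25a27, Slc1a4, Slc36a1, Slc35f2, Slc39a10, Slc45a4, Slc52a2, Slc18b1, Slc7a1, Slc31a1 and Slc39a8. The 8 higher in all 3 (4.47%, against 4.81% and 5.63%) were Slc12a4, Slc25a5, Slc25a24, Slc43a3, Slc1a5, Slc20a1, Slc2a9 and Slc16a6. The members that fell in every cohort include 4 of the 7 carriers of monocarboxylates and thyroid hormone. By the smallest of their 3 changes, the leading ones that fell were Slc44a5, Slc16a9 and Slc22a8, and the leading ones that rose were Slc1a5, Slc20a1 and Slc16a6. Another 4 members (2.23%) were called higher in 1 cohort and lower in another, near the 1.99% and 2.3% of those genes. They were Slc7a5, Slc30a1, Slc38a3 and Slc41a1, each higher in Alk1 and lower in Eng mutants. That pair and direction alone held 0.504% and 0.649% of those genes. The zinc exporter Slc30a1 was at 11996 ± 925 in Eng wild types and 9217 ± 572 in mutants (-0.38 ± 0.06, adjusted p = 0.00063). In Alk1 it was at 10276 ± 621 and 14364 ± 4091 (0.44 ± 0.15, adjusted p = 0.0352), with overlap. The Alk1 call was lost under quantile normalization (0.30, adjusted p = 0.0624), among libraries without a code (adjusted p = 0.172) and without any of 6 libraries (wild types 2 to 5, mutants 2 and 4; adjusted p = 0.0528 to 0.0771). The glutamine carrier Slc38a3 rose by 0.39 ± 0.10 in Alk1 (adjusted p = 0.0121) and fell by 0.18 ± 0.05 in Eng (adjusted p = 0.0195), with overlap in both, and the effects differed by 0.56 ± 0.12 (adjusted p = 0.00139). Its Alk1 call was lost with no code (adjusted p = 0.14), and its Eng call in the joint fit (adjusted p = 0.2) and without wild type 3 (adjusted p = 0.051).

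**Figure D3:**
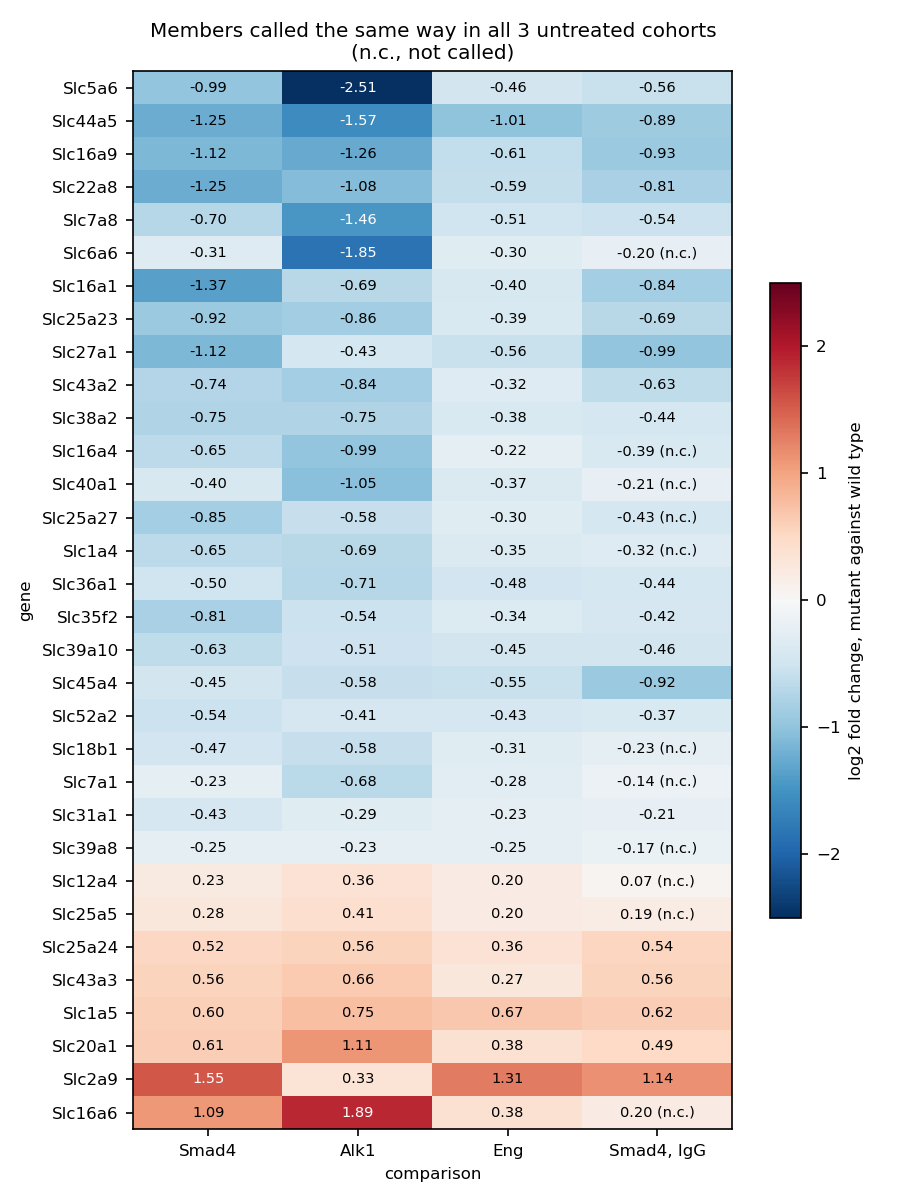
Log2 change, mutant over wild type, of members called lower or higher in all 3 cohorts (rows) in the Smad4, Alk1 and Eng cohorts and the Smad4 IgG experiment (columns), as a colour with the value in the cell; n.c. marks a change that was not called. For most members that fell, the Eng change lies closer to 0 than the Smad4 and Alk1 changes.

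The effects of the deletions were compared in a joint fit, in which each cohort keeps its own wild types. The Smad4 and Alk1 effects differed for 41 members (26 higher and 15 lower in Smad4 minus Alk1), the Smad4 and Eng effects for 26 (13 and 13) and the Alk1 and Eng effects for 48 (22 and 26). Of all genes tested, 15.9% differed in the first pair (7.77% higher, 8.15% lower), 8.04% in the second (4.16%, 3.88%) and 14.5% in the third (7.8%, 6.72%). Without Smad4 mutant 3, the 26 members of the second pair became 43. The cohorts differ in age and tamoxifen dose where Alk1 is involved, as given above. The 4 largest differences of each pair included Slc6a6, Slc5a6, Slc25a33 and Slc2a9 for Smad4 against Alk1. For Alk1 against Eng they were Slc5a6, Slc6a6, Slc16a6 and Slc1a1. For Smad4 against Eng they included Slc38a11 (-1.41 ± 0.36, adjusted p = 0.0145), Slc7a2 (-1.18 ± 0.33, adjusted p = 0.0264) and Slc16a1. The Slc7a2 difference was lost without any of 5 libraries (Smad4 wild type 1 and mutant 4, Eng wild types 2 and 5 and mutant 2; adjusted p = 0.0522 to 0.063). The Smad4 and Eng effects on Slc7a5 differed by 0.63 ± 0.20 (adjusted p = 0.0459). That difference was lost on totals (adjusted p = 0.0528), under quantile normalization (0.33, adjusted p = 0.147) and without any of 16 of the 30 libraries (adjusted p = 0.0506 to 0.0991).

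**Figure D4:**
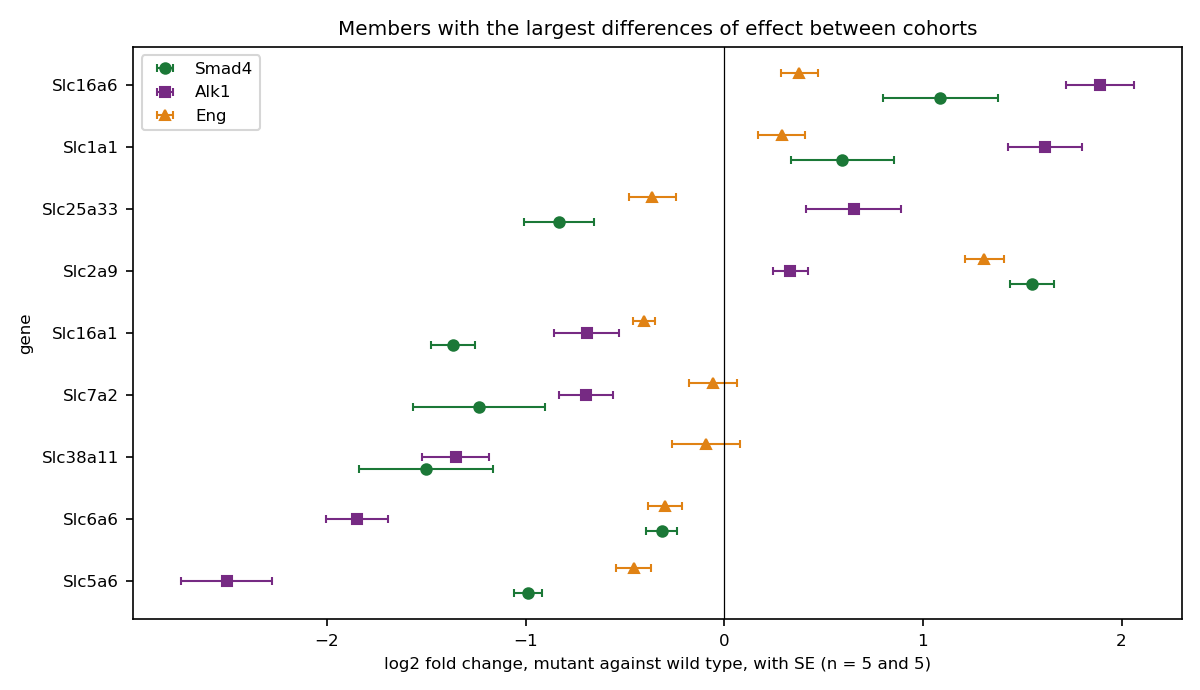
Log2 change with SE in each cohort for the members with the largest differences between cohorts, 1 row per gene. Slc5a6 and Slc6a6 lie farthest left in Alk1, and Slc16a6 and Slc1a1 farthest right in Alk1.

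The level rule left out genes that were low in wild types and higher in mutants. The genes named here were chosen because their mean in a cohort was below 200 in wild types and at least 200 in mutants, so their values in such a cohort are a description without a test. In Alk1, the magnesium carrier family member Slc41a2 went from 14.1 ± 4.0 to 233.0 ± 109.0, the lactate exporter Slc16a3, or MCT4, from 54.4 ± 6.2 to 711.9 ± 177.3, and the glucose carrier Slc2a3 from 92.4 ± 30.5 to 335.5 ± 68.2. In the cohorts that did not choose it, the change of Slc41a2 was not called (1.32 ± 0.58 in Smad4 and 0.10 ± 0.22 in Eng, adjusted p = 0.101 and 0.799), though the Smad4 change passed in the joint fit (adjusted p = 0.0153). Slc16a3 was called higher in Smad4 (1.41 ± 0.46, adjusted p = 0.0359) and Eng (0.71 ± 0.22, adjusted p = 0.041). The first was lost in the marker fit (0.38, adjusted p = 0.56) and with no code (0.42, adjusted p = 0.29), and the second in the joint fit (adjusted p = 0.199). Slc2a3 was lower in Smad4 mutants, at 135.1 ± 17.3 and 88.3 ± 29.8 (-0.65 ± 0.21, adjusted p = 0.0363). That call was lost under quantile normalization (-0.30, adjusted p = 0.373), in the marker fit (adjusted p = 0.117) and within each set of codes (adjusted p = 0.0831 and 0.186). It was also lost with no filter on low values (adjusted p = 0.0555) and without any of 7 libraries (adjusted p = 0.0622 to 0.081). The Eng change of Slc2a3 was 0.08 ± 0.13 (adjusted p = 0.711).

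In Smad4, the hexose carrier Slc2a6 went from 25.7 ± 5.8 to 253.9 ± 99.2, the thiamine carrier Slc19a2 from 188.3 ± 37.9 to 669.9 ± 103.7, and Slc27a3, a fatty acid carrier family member, from 188.4 ± 23.7 to 319.1 ± 23.8. Slc2a6 rose in Eng (1.06 ± 0.23, adjusted p = 0.0069), a call lost in the joint fit (adjusted p = 0.112). Slc19a2, which also passed the level in Alk1 mutants (188.4 ± 21.8 and 339.6 ± 61.1), rose in Eng from 255.2 ± 52.9 to 799.7 ± 46.9 (1.66 ± 0.12, adjusted p = 3.43e-06). Slc27a3 rose in Eng from 226.8 ± 11.9 to 457.7 ± 37.3 (1.00 ± 0.08, adjusted p = 7.33e-06), and its Alk1 change was 0.01 ± 0.13 (adjusted p = 0.97). In Eng, Slc26a10 went from 148.6 ± 18.9 to 293.4 ± 75.7, and in Smad4 mutants it fell from 188.3 ± 26.1 to 67.3 ± 29.7 (-1.54 ± 0.26, adjusted p = 0.00128), with -0.66 ± 0.35 in Alk1 (adjusted p = 0.176). The amino acid carrier Slc43a1 went from 178.2 ± 13.8 to 267.2 ± 42.1 in Eng and from 180.5 ± 32.0 to 314.2 ± 32.8 in Alk1. It rose by 0.73 ± 0.16 in Smad4 (adjusted p = 0.00627), a call lost in the marker fit (0.53, adjusted p = 0.0872) and among libraries without a code (0.52, adjusted p = 0.0842).

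Members of the solute carrier superfamily with other symbols were counted from a separate list, of which 28 genes were tested in each cohort. Its counts, and those of the partners that follow, stand beside the shares of all genes given above (15.8%, 15.7% and 9.08% lower and 17.2%, 17.5% and 12.4% higher). In Smad4 mutants 4 rose and 8 fell, in Alk1 mutants 3 rose and 10 fell, and in Eng mutants 1 rose and 8 fell. Mfsd2a, the lysophospholipid carrier of the brain endothelium, fell in Smad4 (-0.52), Alk1 (-0.78) and Eng mutants (-0.49), with adjusted p = 0.000329, 6.67e-05 and 0.0021. The thyroid hormone and organic anion carrier Slco1c1 fell as well, by 0.74 in Alk1 and 0.49 in Eng (adjusted p = 0.000984 and 0.00143). Of 18 partners and regulators of solute carriers, among them the member Slc9a3r2, 2 rose and 7 fell in Smad4 mutants. In Alk1 mutants 6 rose and 7 fell, and in Eng mutants 3 rose and 5 fell. Bsg, the chaperone that brings Slc16a1 to the membrane, fell by 0.42 in Smad4 and 0.30 in Alk1 (adjusted p = 0.00797 and 0.0171), against -0.08 in Eng (adjusted p = 0.423). Stom, a membrane protein that binds Slc2a1, fell in all 3 (-1.18, -0.68 and -0.58, with adjusted p = 3.42e-07, 0.000634 and 7.63e-05). Txnip, which lowers Slc2a1 at the membrane, fell by 0.70 in Smad4 and 0.31 in Eng (adjusted p = 2.19e-05 and 0.000127). Atf4, the factor that binds the amino acid response element, rose in Alk1 (0.78, adjusted p = 0.000749), against 0.25 in Smad4 and 0.07 in Eng (adjusted p = 0.266 and 0.545).

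In the IgG experiment, 48 members were called in Smad4 mutants against Smad4 wild types (16 higher, 32 lower, 26.8% of 179), against 17.8% of all genes (9.67% higher, 8.12% lower) and 19.6% of genes at the same level. Of the 46 members lower in untreated Smad4 mutants, 25 (54.3%) were called lower here and 0 higher, and of the 28 higher, 14 (50%) were called higher and 0 lower. Of all genes tested in both, 33.8% of those lower and 44.6% of those higher in untreated Smad4 mutants were called the same way, and of genes at the same wild-type level 37.3% and 45.5%. The 2 experiments have separate wild types. Slc16a1 was at 148059, 132617 and 146369 in IgG wild types and at 95058, 84889 and 61514 in IgG mutants (-0.84 ± 0.16, adjusted p = 0.0152). Slc44a5 was at 1840, 1470 and 1930 against 975, 908 and 919 (-0.89 ± 0.10, adjusted p = 0.0043). Slc2a9 was at 401, 396 and 353 against 606, 856 and 1172 (1.14 ± 0.21, adjusted p = 0.0154). The groups of these 3 genes did not overlap. With 3 libraries per group, the same held for 3110 genes higher and 2608 lower of the 13939 tested. Among the 179 members it held for 35 higher and 45 lower. Slc2a1, which rose in untreated Smad4 mutants, was at 66617 ± 11151 and 78304 ± 6346 (0.24 ± 0.13, adjusted p = 0.211), and Slc1a1 was lower (-0.44 ± 0.09, adjusted p = 0.0197). Markers of other cells were lower here too, with 4 of 8 pericyte, 4 of 7 microglia, 4 of 6 fibroblast and 3 of 9 neuron markers called. The mean glia and neuron marker level was 7.83, 8.58 and 8.83 in IgG wild types and 7.63, 7.82 and 7.63 in IgG mutants. These groups did not overlap, so the marker fit can hardly tell genotype and marker level apart here. In the marker fit 10 members (5.59%) passed, 9 of them among the 48, against 5.07% of all genes and 5.53% of genes at the same level. Without wild type 2 or 3 or mutant 2 or 3 there were 22, 27, 15 and 29. The Slc16a1, Slc2a9 and Slc1a1 calls were lost in the marker fit (changes of -0.86, 1.04 and -0.31, adjusted p = 0.0979, 0.124 and 0.198) and without mutant library 2. Those of Slc2a9 and Slc1a1 were also lost without wild type 2, and that of Slc1a1 without wild type 3.

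Mutants that received LC10 were set beside the IgG mutants without a test, after scaling to the IgG table, since the 2 were normalized separately. Of the 32 members lower in IgG mutants, the LC10 mean lay above the IgG mutant mean for 14, with a median log2 difference of -0.02. Of the 16 higher in IgG mutants, it lay above for 6, also with a median difference of -0.02. Over all 179 members it lay above for 89, with a median difference of 0.0. Slc16a1 had a mean of 78768 ± 1722 in LC10 mutants and 79972 ± 17225 in IgG mutants, against 143295 in IgG wild types on that scale. Slc44a5 was at 982 ± 114 and 928 ± 36, against 1758. Slc2a9 was at 1065 ± 39 and 872 ± 280, against 386. For these 3 members the LC10 libraries overlapped the IgG mutants. For Slc5a6 all LC10 libraries lay below all IgG mutants, at 2155 ± 64 against 2762 ± 627, with wild types at 4053. Of the 32 members lower in IgG mutants, this held for 5, and for 1 all LC10 libraries lay above. Over all 179 members it held for 17, and for 14 all LC10 libraries lay above.

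**Figure D5:**
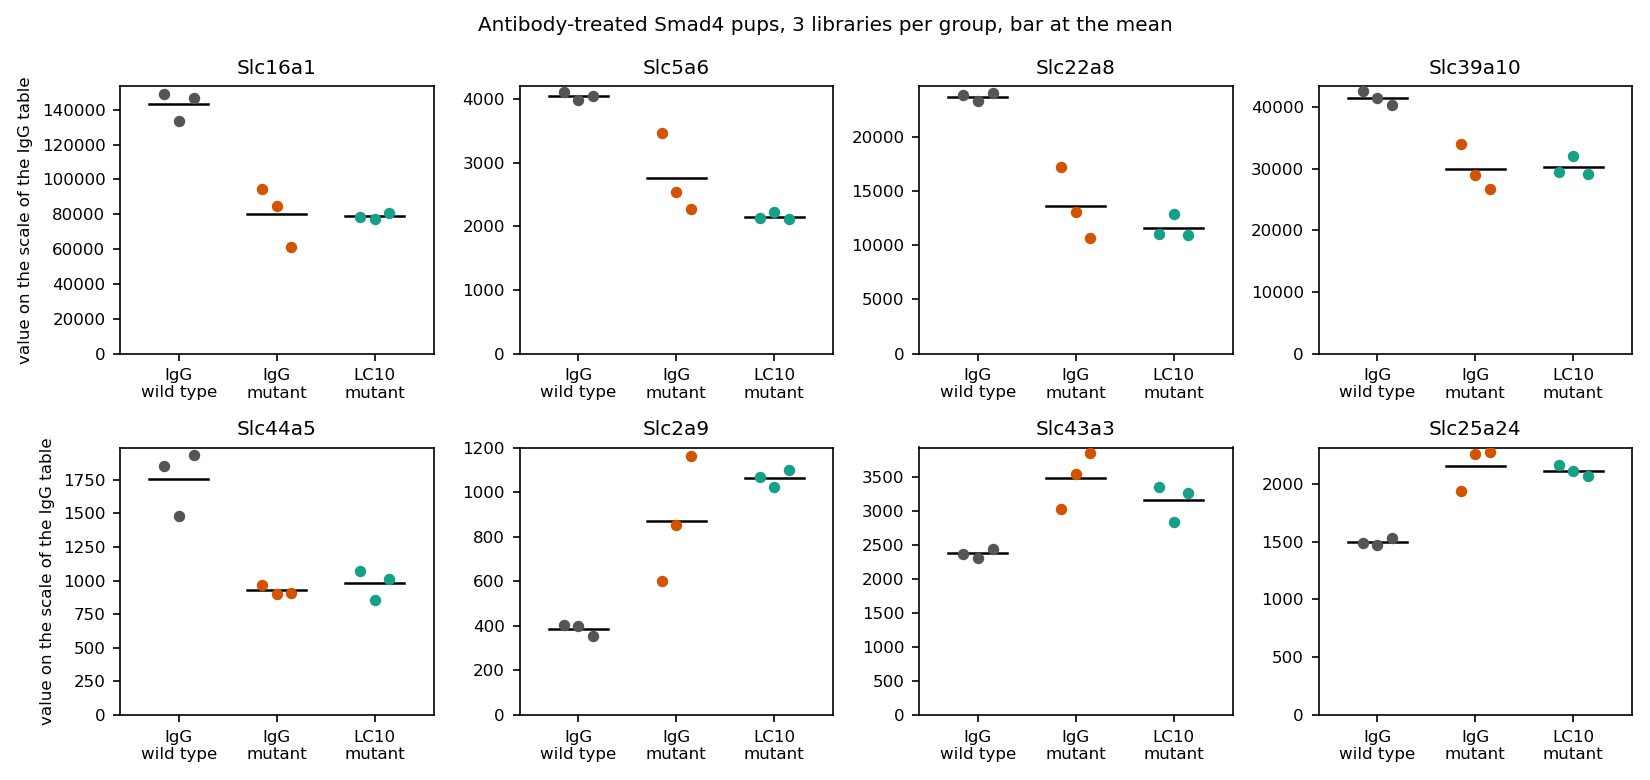
Values of 8 members in IgG wild types, IgG mutants and LC10 mutants of the Smad4 model, on linear axes from 0, scaled to the IgG table; each point is 1 of 3 libraries per group and the bar is the mean. LC10 mutants lie among or near the IgG mutants for Slc16a1, Slc44a5 and Slc2a9.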

How the data were processed

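RNA of brain endothelial cells was read from 39 libraries in 9 groups. The deposited values are a normalized expression signal per gene and library: the labels call them raw counts, but they are not whole numbers and whole reads could not be recovered, so no count test was used and the depth of each library is unknown. The genome build was mm10, per the submitters' processing notes, and for the aligner, counter and normalization the tools were not given in the sources used here. Columns of the untreated tables name a group but no labelled replicate, and 3 columns that match no sample were not used. Names that spreadsheets turn into dates or that occur repeatedly were dropped (26 per table).

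Values were compared as log2(value + 2) with limma 3.58.1 in R 4.3.3 (moderated, with a trend), among genes of at least 20 in at least 5 libraries (3 for IgG), two-sided, with Benjamini-Hochberg adjustment over all genes tested and a threshold of 0.05. Each cohort was fitted alone, and differences between cohorts came from a joint fit of the 30 untreated libraries. The code was tested on simulated data. Tables and figures used Python 3.11.15, pandas 2.3.3, numpy 2.4.6 and matplotlib 3.10.9. The LC10 libraries were put, with the 6 IgG libraries, on the scale of the IgG table by median ratios over these 9 libraries. Exon lengths and gene coordinates were those of the reference annotation on mm10, and all 179 members matched. The alternatives were a pseudocount of 20, no filter, totals, quantile normalization, the marker fit (glia and neuron markers as a covariate), library codes, the joint fit, a replicate block and leaving out each library. Fits within code L146, L219 or L210 were chosen after seeing the data.

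The members, substrate classes and lists were chosen with earlier results of these data known. Slc7a6os and Slc4a1ap were moved to the class of scaffolds after their names were seen. Genes named were the fixed barrier carriers, up to 3 called members per class and cohort without overlap, the 4 largest differences per pair of cohorts, the 3 leading shared changes each way, and genes near or below the threshold. Some members that this rule names are not reported here. Slc12a4, Slc1a4, Slc23a2, Slc31a1, Slc36a1, Slc38a2, Slc38a3, Slc39a8, Slc41a1, Slc43a2, Slc52a2 and Slc6a11 fell outside that rule and were named after their values were seen.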

Additional observations from a re-analysis of the deposited data

Results flagged for a closer look

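In 31 of 450 groups of 5 libraries (75 named members and 6 untreated groups each), 1 library stood apart from the other 4 by a gap of over 0.71 of the group's range, and chance flags about 1 in 20 groups. In Smad4 wild types these libraries were at 1094 for Slc13a4, 3874 for Slc22a17, 1425 for Slc27a1, 263 for Slc2a9 and 1965 for Slc4a10. In Smad4 mutants they were at 5291 for Slc12a2, 1147 for Slc19a3, 191 for Slc25a26, 9914 for Slc31a1 and 2933 for Slc35f2. In Alk1 wild types they were at 863 for Slc1a5, 1577 for Slc31a2 and 1857 for Slc35b4. In Alk1 mutants they were at 61 for Slc13a4, 4342 for Slc20a1, 485 for Slc22a17, 716 for Slc22a5, 183 for Slc35a5, 785 for Slc35d1, 30796 for Slc1a4, 51912 for Slc38a2 and 724 for Slc6a20a. In Eng wild types they were at 387 for Slc25a27, 1367 for Slc35e2, 36896 for Slc38a5, 3059 for Slc44a5, 4016 for Slc52a2 and 17794 for Slc7a8, and in Eng mutants at 2260 for Slc16a9, 290 for Slc25a27 and 27265 for Slc39a8.

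The effect of deletion differed between cohorts for 11 leading pairs of gene and cohorts, tested in the joint fit with limma. For Smad4 minus Alk1 the log2 differences were 1.53 for Slc6a6, 1.52 for Slc5a6, -1.48 for Slc25a33 and 1.22 for Slc2a9. For Smad4 minus Eng they were -1.41 for Slc38a11, -1.18 for Slc7a2 and -0.96 for Slc16a1. For Alk1 minus Eng they were -2.05 for Slc5a6, -1.55 for Slc6a6, 1.51 for Slc16a6 and 1.33 for Slc1a1.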

How the results depend on the processing

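No member called in a comparison changed sign under any alternative that was run, while 164 of 7347 alternative values of named results that were not called did. The median of all genes, close to 0, changed sign in Smad4 (-0.006, and 0.015 under quantile normalization) and Eng (-0.013, and 0.002 on totals). It also did so in IgG mutants (0.003, -0.019 with no filter and -0.025 on totals). Under quantile normalization the median difference changed sign for Smad4 minus Alk1 (-0.019 to 0.029) and Smad4 minus Eng (-0.021 to 0.018). In the marker fit the members called were 42 in Smad4 (13 higher, 29 lower) and 10 in IgG mutants (3 higher, 7 lower). They were 90 in Alk1 and 60 in Eng mutants in that fit. In the joint fit 31 were called in Eng mutants (6 higher, 25 lower). Among libraries with code L146, 45 members were higher in Smad4 mutants, and among Alk1 libraries without a code 52 were called, 13 of them higher. The cause was not tested. Leaving out 1 library at a time gave 64 to 92 calls in Smad4 (22 to 38 higher, 41 to 54 lower), 76 to 88 in Alk1 (26 to 32, 50 to 56), 49 to 59 in Eng (13 to 17, 35 to 43) and 15 to 60 in IgG mutants (5 to 20, 10 to 40). The differences between cohorts then numbered 33 to 46 for Smad4 and Alk1, 21 to 43 for Smad4 and Eng and 39 to 55 for Alk1 and Eng. On totals the median log2 change of all genes moved from -0.006 to -0.086 in Smad4 and from -0.01 to -0.083 in Alk1 mutants, and of the members' calls 71 of 74 and 79 of 87 were kept. With a pseudocount of 20, 593 results of the named genes kept their side of the threshold and 1 did not (Slc38a2, Alk1 minus Eng, adjusted p = 0.0506). Over all members, that pseudocount gave 75 calls in Smad4 mutants against 74, and 47 in IgG mutants against 48. The number of members would be 206 with a wild-type mean of at least 100 and 148 with at least 500.

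The replicate block could be fitted in the IgG experiment alone, where it gave 52 calls (11 higher, 41 lower) against 48. Same-numbered libraries there had correlations of deviations of 0.061, 0.028 and -0.073, and differently numbered ones -0.148 to 0.136. With 3 libraries per group, these values cannot decide whether the numbers pair the libraries. No paired analysis was possible because the columns of the untreated cohorts carry no labelled replicate numbers.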
